A study of Mus musculus with 12 samples.

Results

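The 9 genes described here encode the core of calcium-calmodulin signalling: the calmodulin genes Calm2 and Calm3, the CaM kinase II genes Camk2a, Camk2b, Camk2d and Camk2g, the CaM kinase I gene Camk1d, the upstream kinase gene Camkk2, and Ppp3ca, a catalytic subunit of the phosphatase calcineurin. They were chosen by name, with earlier results of these data known, and are 9 of the 49585 genes counted. All 9 had counts, and 8 passed the filter on low counts (Camk2b did not). RNA was sequenced from haematopoietic stem cells (HSCs) of the bone marrow of 6 wild type (WT) mice and 6 Pon2-/- mice, all aged 10 to 14 weeks and labelled C57BL/6J. Pon2-/- mice carry a gene trap with a β-geo reporter between loxP sites in intron 2 of Pon2, the gene of the antioxidant enzyme paraoxonase 2, whereas WT mice carry no insertion. WT mice were bought from Charles River, and no source used here gives litters, so the origin of the colony and the genotype cannot be told apart. HSCs were gated as lineage-negative, Sca1+, ckit+, CD135- and CD150+ cells. They are labelled LT-HSCs, although the study describes the gate as also holding MPP2 progenitors. Per mouse, 8 wells of 10 cells were made into full-length Smart-seq2 cDNA, and each value below is for 1 mouse, with all of its wells in 1 count table. The comparison asked whether the genes of this pathway differ between Pon2-/- and WT HSCs.

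When cytosolic calcium rises, it fills the EF-hand loops of calmodulin, and calcium-loaded calmodulin then binds and opens a group of kinases and the phosphatase calcineurin. CaM kinase II assembles into rings of subunits that phosphorylate one another on a threonine beside the calmodulin-binding segment, which keeps the kinase active after calcium has fallen. CaM kinase kinase 2 activates CaM kinase I, CaM kinase IV and AMPK, and calcineurin removes phosphates from NFAT factors so that they can enter the nucleus. Camk2a and Camk2b are best known from neurons, while Camk2d and Camk2g are expressed in many tissues.

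Calm2 and Calm3 are shown first, because they make the same protein from different DNA and their reads can therefore be told apart. Each has a coding sequence of 450 bases including the stop codon, for a protein of 149 residues that is identical between them. The following 60 bases start at the first calcium-binding loop and lie in exon 3, at chr17:87435849-87435908 (minus strand) for Calm2 and at chr7:16917643-16917702 (minus strand) for Calm3, on GRCm38. Capitals mark the bases that differ between Calm2 and Calm3.
Calm2: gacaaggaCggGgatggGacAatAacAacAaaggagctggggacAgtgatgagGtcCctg
Calm3: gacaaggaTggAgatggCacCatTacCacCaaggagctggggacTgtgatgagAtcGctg
In this window they differed at 10 bases, all without a change of an amino acid. Over the whole coding sequence they differed at 78 bases and were 82.7% identical, and their longest identical run was 17 bases. Processed pseudogenes at least 90% identical to part of a calmodulin transcript held few counts: Gm7308, Gm14480 and Gm15720 held 115, 15 and 59 counts over all 12 samples against 297867 for Calm2, and Gm5881 held 23 against 26222 for Calm3.

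The CaM kinase II genes differ more, also in protein. The autophosphorylated threonine is residue 287 in all 3 proteins, and its codon is in capitals below. The 60 bases printed around it lie in exon 11 of the transcript used. They lie at chr11:5988976-5989035 (minus strand) for Camk2b, at chr3:126797705-126797764 (plus strand) for Camk2d and at chr14:20760418-20760477 (minus strand) for Camk2g, on GRCm38.
Camk2b: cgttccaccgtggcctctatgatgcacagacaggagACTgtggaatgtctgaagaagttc
Camk2d: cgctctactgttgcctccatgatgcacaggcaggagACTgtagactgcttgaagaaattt
Camk2g: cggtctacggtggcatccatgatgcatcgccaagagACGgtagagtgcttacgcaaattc
Camk2b and Camk2d differed at 12 bases of this window, Camk2d and Camk2g at 15, and Camk2b and Camk2g at 19. No other annotated gene was at least 90% identical to a kinase gene or Ppp3ca over at least 50% of its own length, and none of the 9 genes shared exon bases with another gene. All sequences were read from GENCODE release M21 transcripts.

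Between 12967791 and 24228280 counts were available for a WT sample and between 14671353 and 23122382 for a Pon2-/- sample. A count of 0 allows up to 3 counts, which in CPM (counts per 1000000 counts) is 0.121 to 0.235 across the libraries, and this limit covers counting error only because PCR copies are not independent molecules. Pon2 was lower in every Pon2-/- sample (1.16 to 33.1 CPM) than in any WT sample (56.4 to 202 CPM). All 10 HSC markers were detected, among them Kit, Ly6a, Slamf1 and Procr, with a summed level of 2263 to 2840 CPM in WT and 2192 to 2783 CPM in Pon2-/- HSCs. The summed level of 10 mature myeloid markers was uneven, at 565 to 10457 CPM in WT and 597 to 17258 CPM in Pon2-/- HSCs. That of 10 B lineage markers was 25.5 to 353 CPM and 58.8 to 868 CPM. Of 10 T and NK lineage markers, Cd3e, Cd8a and Cd5 were at 0 in all 12 samples, and the sum was 0.0424 to 65.1 CPM and 20.2 to 73.1 CPM. Of 9 erythroid markers, Car1 and Slc4a1 were at 0, and the sum was 9.16 to 61.8 CPM and 16.4 to 47.0 CPM. The sum of 10 megakaryocyte and platelet markers was 232 to 295 CPM and 204 to 311 CPM.

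Compared per length, Calm2 and Calm3 stood above the enzyme genes of this set of 9. Calm2 had 893.5 ± 188 CPM per kilobase of merged exons (SD, n = 12) and Calm3 48.7 ± 12.8. Calm2 exceeded Calm3, and Calm3 the highest enzyme gene on average, in 12 of 12 samples. Among the enzyme genes of this set, Camk2g (13.1 ± 6.56) and Camk2a (9.97 ± 2.85) were highest on this scale. They were followed by Ppp3ca (4.55 ± 2.41), Camk2d (2.19 ± 1.16), Camkk2 (1.79 ± 1.08) and Camk1d (1.30 ± 1.37), with Camk2b last at 0.116 ± 0.241. Not every step of this order was larger than the spread between samples. Camk2g exceeded Camk2a in 9 samples, Ppp3ca exceeded Camk2d in 11, Camk2d exceeded Camkk2 in 8, Camkk2 exceeded Camk1d in 8, and Camk1d exceeded Camk2b in 9 of 12 samples. In these 5 pairs the difference of the means was within the larger SD. Outside this set, the CaM kinase genes Pnck (16.7 ± 14.2) and Camk1 (13.5 ± 6.93) had higher means on this scale than Camk2g. Each value sums over the cells of a mouse, so that fewer cells with a transcript and less RNA per cell cannot be told apart. The place of Camk2d depends on its length: its 28 annotated transcripts cover 22493 bases together, while the longest has 5524.

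**Figure D1:**
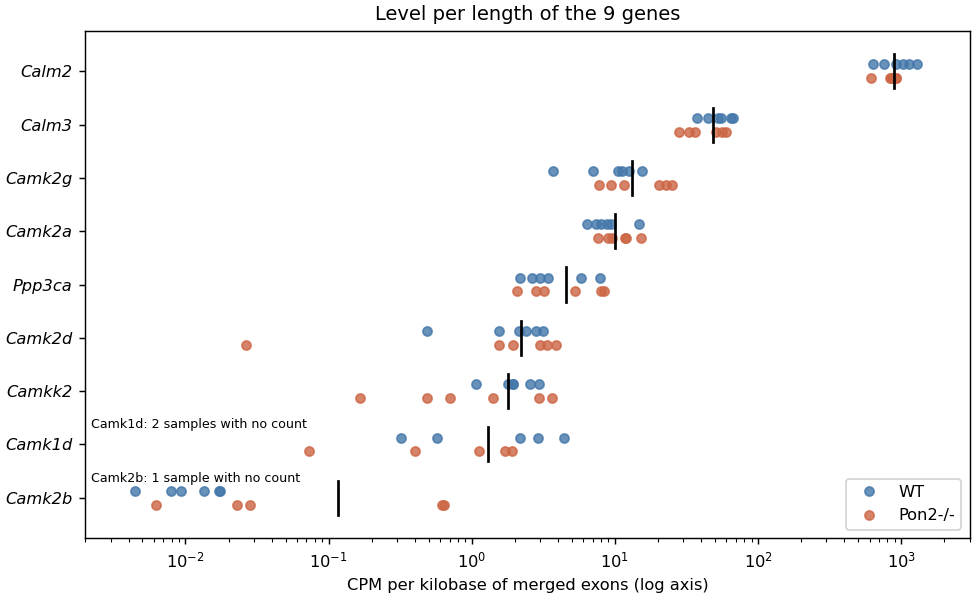
Level of the 9 genes in CPM per kilobase of merged exons, on a log axis, with 1 point per sample (blue WT, orange Pon2-/-) and a black bar at the mean of all 12 samples. Calm2 lies highest at a mean of 893.5 and Camk2b lowest at 0.116; samples without a count, 2 for Camk1d and 1 for Camk2b, cannot be drawn on this axis and are written beside the gene.

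Calm2 (ENSMUSG00000036438.12, chromosome 17, 87433412 to 87446935, minus strand) was the most abundant of the 9 genes in CPM as well as per length. Its level ranged from 937 CPM over a median of 1423 to 1874 CPM in WT HSCs and from 896.5 over 1254 to 1341 CPM in Pon2-/- HSCs. Every Pon2-/- sample was below the WT median, yet only replicate 6 was below the lowest WT sample, and the genotypes overlapped. The fitted log2 fold change, Pon2-/- over WT, was -0.20 (95% interval -0.56 to 0.15), a fold of 0.868 with an interval of 0.680 to 1.11.

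Calm3 (ENSMUSG00000019370.10, chromosome 7, 16915379 to 16924114, minus strand) ranged from 90.8 over a median of 130.3 to 162 CPM in WT HSCs. In Pon2-/- HSCs it ranged from 67.6 over 105 to 144 CPM, with replicates 2, 4 and 6 below every WT sample and replicates 1, 3 and 5 among them. Its log2 fold change was -0.29 (95% interval -0.78 to 0.20). Calm2 was also among the steadiest of all tested genes: the SD of its log2 CPM within a genotype was 0.30, and 5.96% had a smaller one. Such rankings take genes of all levels together, and genes of like level were not compared.

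Camk2g and Camk2a together made up most of the CaM kinase II transcripts of HSCs. Per length of merged exons, Camk2g took 49.3% ± 11.3 of the 4 genes and Camk2a 40.9% ± 8.76 (SD, n = 12), whereas Camk2d took 9.39% ± 6.32 and Camk2b 0.366% ± 0.763. Camk2g led in 9 samples and Camk2a in the other 3, which were WT replicates 1 and 5 and Pon2-/- replicate 3. With the longest transcript as the length, Camk2d took 19.7%, Camk2g still led in 9 samples, and Camk2a led in 2 and Camk2d in 1. By genotype the share of Camk2g was 45.6% ± 11.8 in WT and 53.1% ± 10.2 in Pon2-/- HSCs (SD, n = 6 each), a difference smaller than either SD.

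**Figure D2:**
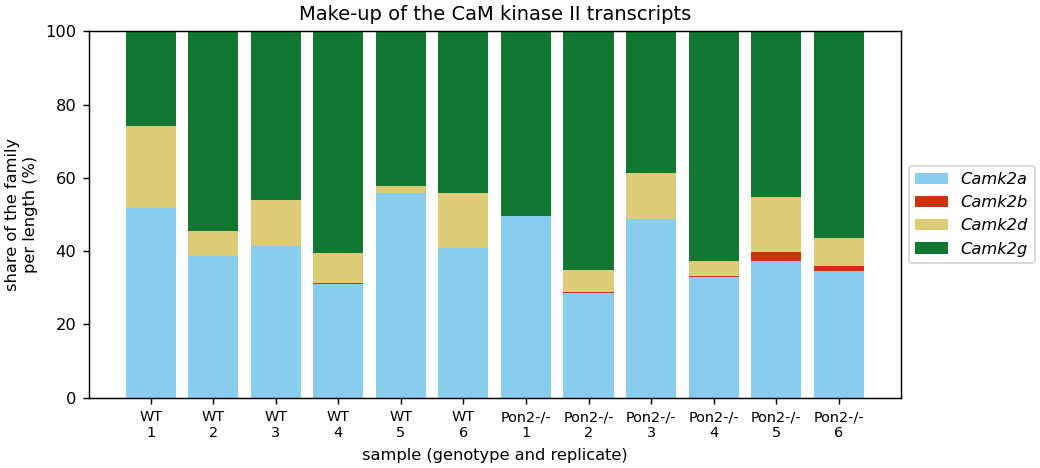
Share of each of the 4 CaM kinase II genes in their sum, per kilobase of merged exons, in percent, with 1 stacked bar per sample. Camk2a and Camk2g fill most of each bar, and the Camk2d share runs from 0.174% in Pon2-/- replicate 1 to 22.3% in WT replicate 1.

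Camk2g (ENSMUSG00000021820.16, chromosome 14, 20734875 to 20794088, minus strand) had the largest upward difference of the 8 members tested. It ranged from 23.5 over a median of 69.0 to 98.6 CPM in WT HSCs and from 49.4 over 102 to 160 CPM in Pon2-/- HSCs. Replicates 2, 4 and 6 of Pon2-/-, at 130, 145 and 160 CPM, were above every WT sample, while replicates 1, 3 and 5, at 49.4, 60.0 and 74.4 CPM, lay within the WT range. The log2 fold change was 0.69 (95% interval -0.13 to 1.5), that is 1.61-fold with an interval of 0.915 to 2.83. This did not pass edgeR's quasi-likelihood test with Benjamini-Hochberg adjustment (unadjusted p = 0.0922, adjusted p = 0.9999), nor the two-sided exact permutation test (p = 0.136). With each sample left out in turn, the unadjusted p of the edgeR fit was 0.0451 (without Pon2-/- replicate 1) to 0.211. Over all alternatives the adjusted p of the edgeR, DESeq2 and limma fits was 0.414 to 1.0.

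Camk2a (ENSMUSG00000024617.16, chromosome 18, 60925618 to 60988152, plus strand), the form best known from the synapse, was detected in every sample with at least 756 counts. It ranged from 47.9 over a median of 62.6 to 109 CPM in WT HSCs and from 56.5 over 79.7 to 114 CPM in Pon2-/- HSCs. Of the Pon2-/- samples, 5 were above the WT median and 1 was above the highest WT sample. The log2 fold change was 0.25 (95% interval -0.30 to 0.81). Its spread was small beside tested genes of all levels, with an SD of log2 CPM within a genotype of 0.39. Of these genes, 11.3% had a smaller one.

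Camk2d (ENSMUSG00000053819.16, chromosome 3, 126596302 to 126846326, plus strand), a widely expressed form, was uneven among samples. It ranged from 10.9 over a median of 50.9 to 71.2 CPM in WT HSCs and from 0.598 over 55.4 to 87.8 CPM in Pon2-/- HSCs. A single library was far below the rest: Pon2-/- replicate 1 held 10 Camk2d counts, and the other Pon2-/- samples held 500 to 1898. The next lowest was WT replicate 5 with 150 counts. Pon2-/- replicate 1 also had the highest summed mature myeloid markers (17258 CPM), although the lineage antibodies of the sort include CD11b and Gr1 against mature myeloid cells, and the part of these marker transcripts in its Camk2d level was not tested. The fitted log2 fold change was 0.13 (95% interval -1.42 to 1.68), whereas the difference of the mean log2 CPM was -0.54 (p = 0.823 in the two-sided exact permutation test). With Pon2-/- replicate 1 left out, both were above 0, at 0.39 for the fit and 0.52 for the means (exact permutation test, p = 0.377).

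Camk2b (ENSMUSG00000057897.14, chromosome 11, 5969644 to 6066362, minus strand), the other neuronal form, was at the edge of detection in 10 of 12 mice. WT samples held 1 to 3 counts each, and Pon2-/- replicates 1 to 4 held 0, 6, 1 and 3. Pon2-/- replicates 5 and 6 held 123 and 97 counts (5.69 and 5.83 CPM), which was 95.7% of the Camk2b counts of their genotype. The exact permutation test of the genotypes gave p = 0.219 with all samples and 0.948 without both of these, a choice made after seeing the data. With each sample left out in turn, the same exact test gave p = 0.0281 to 0.379, not adjusted. The lowest was without Pon2-/- replicate 1, which had no count. With no filter beyond 1 read, edgeR's quasi-likelihood test gave an unadjusted p of 0.0331 and a Benjamini-Hochberg adjusted p of 0.281, and DESeq2 an adjusted p of 0.0820. Summed B lineage markers were 868 CPM in replicate 5, the highest of all samples, and 58.8 CPM in replicate 6, the lowest of its genotype. Camk2b is listed in a pathway table that the study drew from these same samples, so these counts are not independent of that choice.

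**Figure D3:**
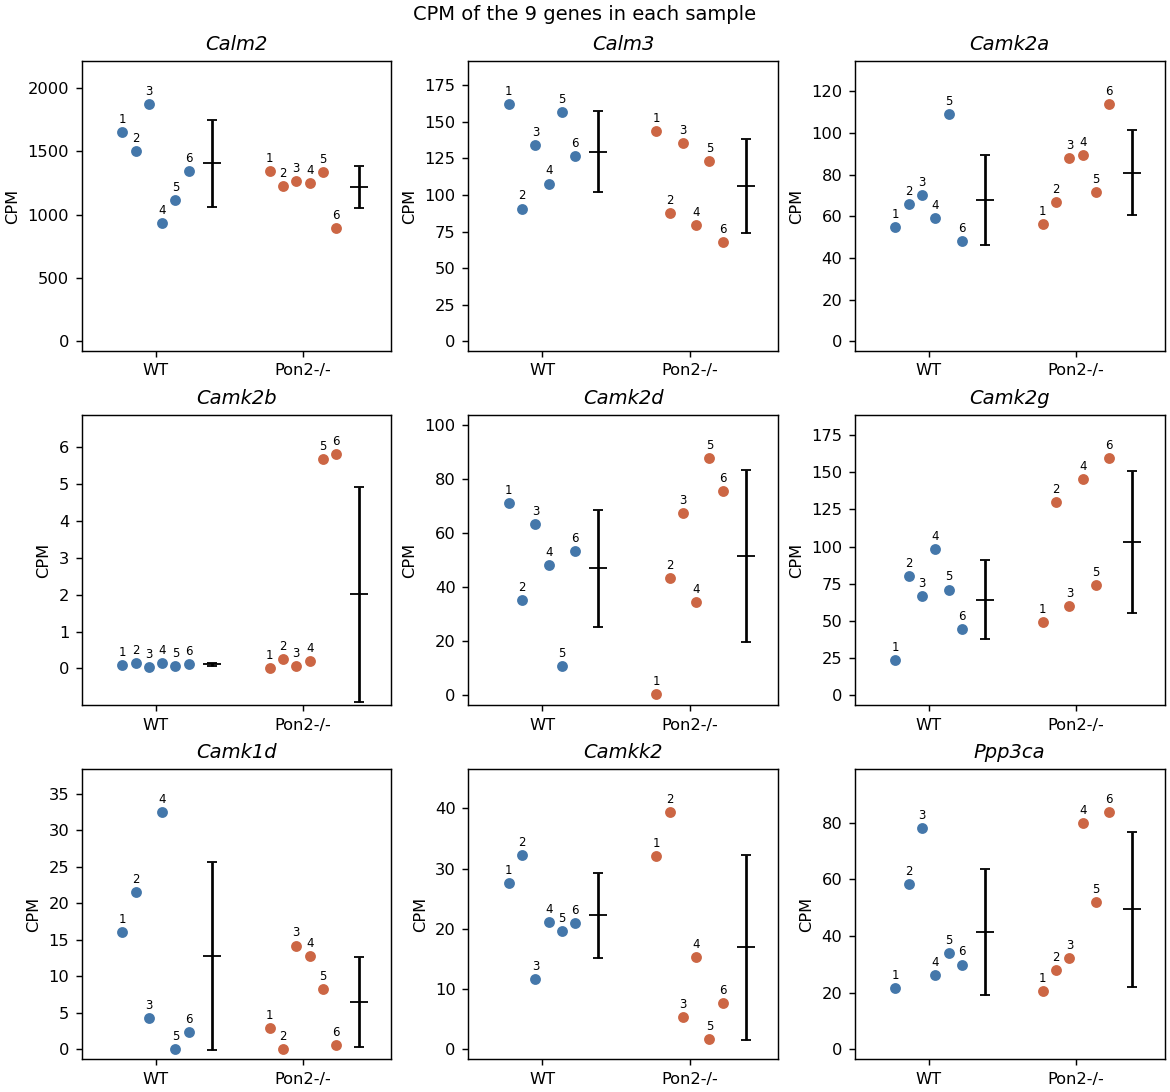
CPM (counts per 1000000 counts) of each of the 9 genes in the 12 samples, with 1 numbered point per replicate (blue WT, orange Pon2-/-) and the mean ± SD of each genotype in black (n = 6). The genotypes overlap in every panel; Camk2b rests on Pon2-/- replicates 5 and 6 (5.69 and 5.83 CPM), and Camk2d is near 0 in Pon2-/- replicate 1 (0.598 CPM).

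Camk1d (ENSMUSG00000039145.16, chromosome 2, 5293457 to 5714515, minus strand), a CaM kinase I form, was the most variable of the tested members. WT HSCs ranged from 0 over a median of 10.2 to 32.5 CPM, and Pon2-/- HSCs from 0 over 5.64 to 14.2 CPM. WT replicate 5 and Pon2-/- replicate 2 had no count, which allows up to 0.218 and 0.129 CPM. The other 10 samples held 9 to 415 counts. The SD of log2 CPM within a genotype was 2.92, and 87.5% of tested genes had a smaller one. The log2 fold change was -0.98 with an interval from -4.08 to 2.11, so that changes of several fold in either direction lie within it.

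Camkk2 (ENSMUSG00000029471.13, chromosome 5, 122731170 to 122779409, minus strand), which activates CaM kinase I and AMPK, spread differently in the 2 genotypes. WT samples ranged from 11.7 over a median of 21.1 to 32.3 CPM, and Pon2-/- samples from 1.80 over 11.5 to 39.4 CPM. In Pon2-/- HSCs, replicates 1 and 2 were near or above the highest WT values, whereas replicates 3, 5 and 6 were below every WT sample. The SD of log2 CPM was 0.50 in WT and 1.65 in Pon2-/- HSCs, a difference that was not tested. The log2 fold change was -0.39 (95% interval -1.93 to 1.15). It was -1.11 with voom and -0.93 with a replicate block, neither called, and the difference of the mean log2 CPM was -0.98 (exact permutation test, p = 0.199).

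Ppp3ca (ENSMUSG00000028161.17, chromosome 3, 136670124 to 136937727, plus strand), the alpha catalytic subunit of calcineurin, ranged from 21.6 over a median of 32.03 to 78.2 CPM in WT HSCs. In Pon2-/- HSCs it ranged from 20.6 over 42.1 to 83.8 CPM. Each genotype had a few high samples, WT replicates 2 and 3 at 58.2 and 78.2 CPM and Pon2-/- replicates 4 and 6 at 79.9 and 83.8 CPM, and the rest lay between 20.6 and 52.1 CPM. The log2 fold change was 0.25 (95% interval -0.73 to 1.23). Ppp3cb, the beta catalytic subunit, had 3.95 ± 1.79 CPM per kilobase (SD, n = 12) beside 4.55 ± 2.41 for Ppp3ca. Ppp3cc, named here after its values were seen, had counts in 4 of 12 samples.

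No member was called different between the genotypes. A call required a false discovery rate (FDR) under 0.05, from edgeR's quasi-likelihood test with Benjamini-Hochberg adjustment, together with a log2 fold change beyond 1 in either direction. Both thresholds were passed by 0 of the 8 members tested, beside 24 of 11848 genes tested, which is 0.203%. An unadjusted p below 0.05 was reached by 0 of 8 members and by 3.13% of all genes tested. Camk2b was not in this fit, and its values without the filter are given above. The genotypes failed to overlap for 0 of 9 members and for 0.633% of all genes. DESeq2 with default settings called 0 of the 9 members, beside 1.74% of the genes it tested, and voom with sample quality weights also called 0. Of the 8 members, 4 had a log2 fold change above 0 and 4 below, with a median of -0.04 beside -0.01 for all genes tested. The intervals show what the data can bound: those of Calm2, Calm3 and Camk2a stayed within a log2 fold change of 1 in either direction, whereas those of Camk2d, Camk2g, Camk1d, Camkk2 and Ppp3ca did not. The absence of a call does not show that a gene is alike in both genotypes.

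**Figure D4:**
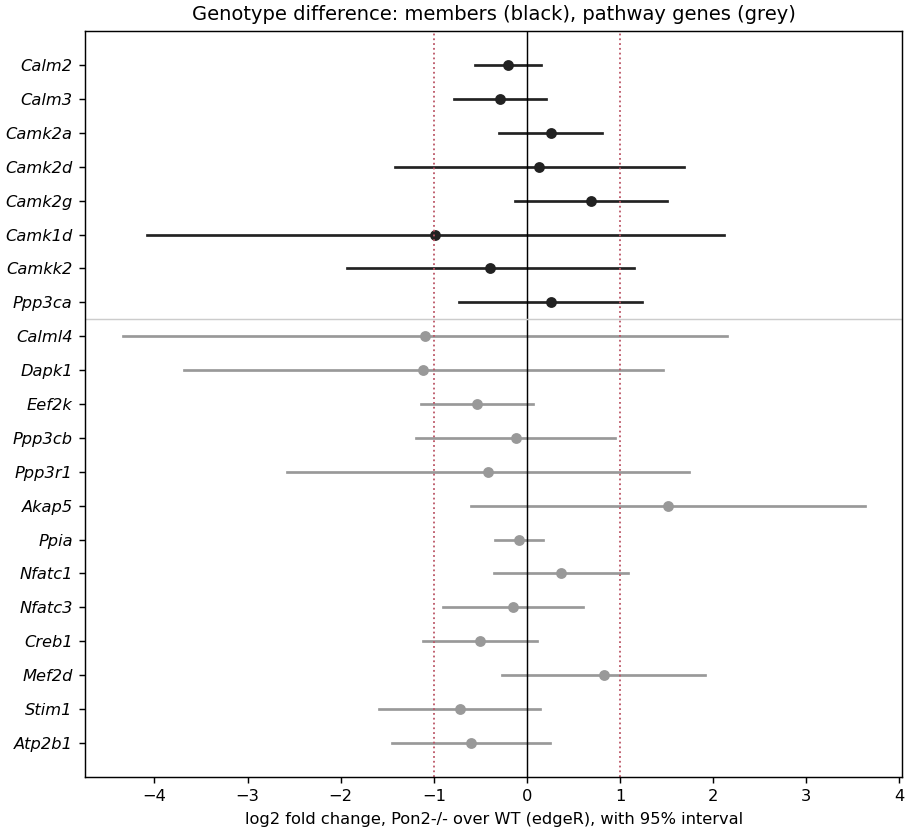
Log2 fold change, Pon2-/- over WT, from the edgeR fit with its 95% interval for the 8 members tested (black) and 13 named pathway genes (grey), with dotted lines at -1 and 1. Each interval includes 0; the members' intervals run from that of Calm2 (-0.56 to 0.15) to that of Camk1d (-4.08 to 2.11).

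Among the members, Camk2g and Calm3 moved in opposite directions from sample to sample. Each mouse has 1 count table, so a difference between mice and one between the pools of cells sequenced cannot be told apart. Over the 12 samples Pearson's r of their log2 CPM was -0.85 and Spearman's rho -0.88. The permutation p, over 100000 shuffles, was 0.000310 for r and 0.000280 for rho, or 0.00868 and 0.00784 after Benjamini-Hochberg adjustment over the 28 pairs of members. Without the 2 samples farthest from the median of Camk2g, r was -0.81. The pair was singled out as the one with the lowest r of the 28 over these samples, so the values within a genotype are a description without a test: r was -0.64 and rho -0.71 within WT HSCs, and r was -0.98 and rho -1.0 within Pon2-/- HSCs (n = 6 each). Of the 11848 tested genes, 3 had an r with Camk2g as low as that of Calm3 or lower, Calm3 included. No other pair of members passed the adjustment, and the median r of the 28 pairs was 0.01. The share of counts on mitochondrial genes, 4.89% to 9.55%, had an r of 0.54 with Camk2g (permutation test, p = 0.0669; rho 0.66, p = 0.0238) and of -0.55 with Calm3 (permutation test, p = 0.0652; rho -0.50, p = 0.102). This share was the strongest of the library measures compared, and the p-values were not adjusted for that choice. For Camk2g, r was -0.33 with the total count, 0.09 with genes with a count and 0.21 with summed mature myeloid markers. For Calm3 these were 0.19, 0.02 and -0.08, in the same order. The part of the mitochondrial share in the relation was not tested.

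**Figure D5:**
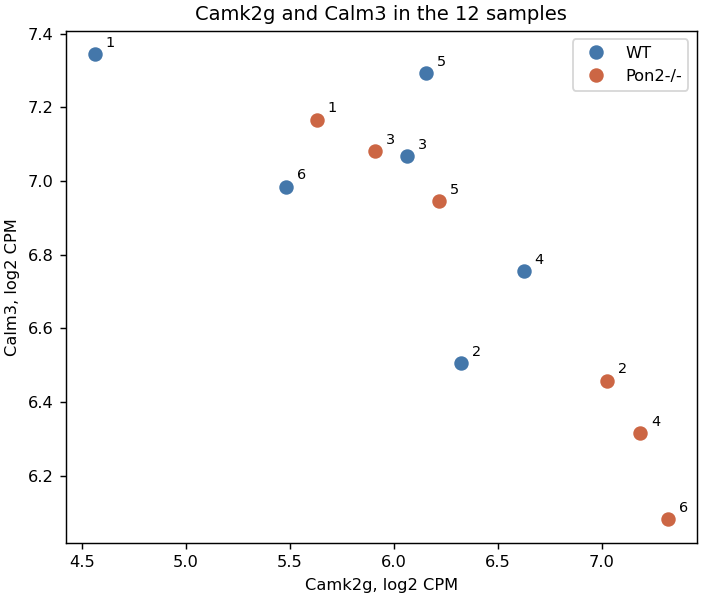
Log2 CPM of Camk2g (horizontal axis) against log2 CPM of Calm3 (vertical axis), with 1 point per sample numbered by replicate (blue WT, orange Pon2-/-). Pon2-/- replicates 2, 4 and 6 lie at the lower right and WT replicate 1 at the upper left, and Pearson's r over the 12 samples is -0.85.

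Beyond the members, 58 genes of the pathway were examined in 8 lists, of which 55 had counts and 46 were tested. Of these 46 genes, 0 were called by edgeR, beside 0.203% of all genes tested, and 0 by DESeq2, beside 1.74% of those it tested. Voom also called 0. An unadjusted p below 0.05 was reached by 0, beside 3.13% of all genes tested. The genotypes were separated by 0, beside 0.633%. With 46 genes, counts of 0 do not set the pathway apart from these shares. A log2 fold change above 0 was found for 21 and below 0 for 25, with a median of -0.10 beside -0.01 for all genes tested. Named below are the genes with the smallest unadjusted p of each list, up to 2 per list.

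Calml4, a calmodulin-like gene, had a log2 fold change of -1.09 (95% interval -4.34 to 2.15). Calml3 had no count in any of the 12 samples. The list of other CaM kinases and relatives had 11 genes, 7 of them tested, with a median log2 fold change of 0.08. Eef2k, the calmodulin-dependent kinase of elongation factor 2, averaged 94.5 ± 23.3 CPM over the WT samples and 65.1 ± 21.9 CPM over the Pon2-/- samples (SD, n = 6). Its unadjusted p in edgeR's quasi-likelihood test, 0.0761, was the smallest of the 46. Its log2 fold change was -0.54 (95% interval -1.14 to 0.06). Dapk1, a death-associated kinase regulated by calmodulin, had a log2 fold change of -1.12 (95% interval -3.69 to 1.46). Of the 2 genes that encode CaM kinase II inhibitor proteins, Camk2n1 had no count in any sample and Camk2n2 had 129 counts, all in WT replicate 1.

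For calcineurin, 2 of the 4 other subunit genes were tested. Ppp3r1, the regulatory B subunit, had a log2 fold change of -0.42 (95% interval -2.58 to 1.74), and Ppp3cb one of -0.12 (95% interval -1.19 to 0.95). Ppp3r2, the other regulatory subunit gene, had no count. Of 7 genes for inhibitors and anchors, 6 were tested, with a median log2 fold change of 0.22. Akap5, which anchors calcineurin, was low on average in both genotypes (WT 0.595 ± 0.281 CPM, Pon2-/- 1.72 ± 3.26 CPM). Its log2 fold change was 1.52 (95% interval -0.60 to 3.63). Pon2-/- samples ranged from 0.0569 to 8.35 CPM, and the highest sample carried most of the mean of its genotype. WT samples ranged from 0.218 to 1.02 CPM. Ppia, the cyclophilin through which cyclosporin blocks calcineurin, was abundant and even (WT 1547 ± 207 CPM, Pon2-/- 1461 ± 186 CPM; log2 fold change -0.08, 95% interval -0.34 to 0.17). Of the 4 calcineurin-regulated NFAT genes, 3 were tested. Nfatc1 averaged 65.0 ± 23.2 CPM over WT and 83.8 ± 36.3 CPM over Pon2-/- samples (log2 fold change 0.37, 95% interval -0.36 to 1.09), and Nfatc3 had a log2 fold change of -0.15 (95% interval -0.90 to 0.60).

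Of 12 kinase substrates and downstream regulators, 11 were tested, 5 with a log2 fold change above 0 and 6 below. Creb1, a transcription factor that CaM kinases phosphorylate, averaged 65.3 ± 18.8 CPM over WT and 45.9 ± 9.48 CPM over Pon2-/- samples (log2 fold change -0.51, 95% interval -1.12 to 0.10). Mef2d, a transcription factor released when CaM kinases act on class IIa histone deacetylases, averaged 18.2 ± 9.53 and 32.3 ± 10.9 CPM, in the same order (log2 fold change 0.82, 95% interval -0.26 to 1.91). All 16 genes examined for calcium entry, release and pumps were tested, 7 with a log2 fold change above 0 and 9 below, with a median of -0.22. Stim1, the calcium sensor of the endoplasmic reticulum, averaged 77.4 ± 44.7 CPM over WT and 47.0 ± 16.4 CPM over Pon2-/- samples (log2 fold change -0.72, 95% interval -1.58 to 0.15). Atp2b1, a calcium pump of the plasma membrane, averaged 90.6 ± 42.6 and 59.7 ± 27.9 CPM, in the same order (log2 fold change -0.60, 95% interval -1.45 to 0.24). Each of these intervals includes 0.

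For each tested member, the genes with the most similar log2 CPM over the 12 samples were sought among all tested genes. They were picked for a high correlation, so no p is given, and the 3 best per member had Pearson's r of 0.84 to 0.95. Camk2g was most like Tanc2 (r 0.95, rho 0.96, and 0.87 for r without the 2 samples farthest from the median), which encodes a scaffold protein. Calm3 was most like Decr1 (r 0.94, rho 0.94, and 0.89 without 2 samples), an enzyme of mitochondrial fatty acid oxidation. Ppp3ca was most like Htra3 (r 0.95, rho 0.91, and 0.94 without 2 samples), a serine protease. The match of Camk2d with Stam2 fell from an r of 0.95 to 0.67 without the 2 samples, which included the near absence in Pon2-/- replicate 1. The best matches of the other members included Fbxl18 for Camk1d (r 0.95) and Cyb561d1 for Camkk2 (r 0.91). Those of Camk2a and Calm2 were pseudogenes, Zfp939 (r 0.87) and H3f3a-ps1 (r 0.86).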

How the data were processed

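RNA-seq of HSCs from 6 WT and 6 Pon2-/- mice was analysed, with genotypes and replicate numbers taken from the sample labels. The deposited values are whole-number counts per gene, 1 table per mouse, without normalization. The authors trimmed Smart-seq2 reads with Trimmomatic 0.36, mapped them to GRCm38.p5 with STAR 2.5.3a and counted them on GENCODE release M12, and their own comparison used DESeq2 1.18.1. How the wells of a mouse were joined, and which of STAR's count columns was kept, is not given in the sources used here. Libraries carry no strand information, so reads of overlapping genes on opposite strands cannot be separated. Mice of a genotype are separate animals.

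Gene names, positions and lengths came from GENCODE M21 on GRCm38, matched by gene ID without its version (49326 of 49585 IDs). Counts were fitted in R 4.3.3 with edgeR 4.0.16 (TMM, filterByExpr, quasi-likelihood test, genotype as the only term). A call needed an FDR under 0.05, by the Benjamini-Hochberg method over all 11848 genes tested, and a log2 fold change beyond 1 in either direction. CPM are counts per 1000000 of the TMM-scaled library, and log2 CPM used a prior count of 2. Single genes were compared with two-sided exact permutation tests over 924 splits, whose smallest p is 0.00216. Levels between genes were compared per kilobase of merged exons. Transcript copies were sought with minimap2 2.31-r1302.

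Alternatives were the size factors of DESeq2 1.42.0, DESeq2 itself, a filter of 1 read in total, one of 10 reads in each sample of either genotype, voom with sample quality weights (limma 3.58.1), robust estimation, a replicate block, the FDR alone, a prior count of 0.5, longest transcripts, and each sample left out. The members and lists were chosen with earlier results of these data known. Some genes of these lists, and results that need them, are not reported here, and list counts leave them out. Named were all members, Pon2, and the pathway genes called or without overlap of the genotypes. Otherwise the 2 of each list with the smallest unadjusted p were named. Also named were the 3 genes most like each tested member (the leading one is printed). Pnck, Camk1, Ppp3cc and genes without counts were named after their values were seen. Columns of the authors' own comparisons were not used.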

Additional observations from a re-analysis of the deposited data

Results flagged for a closer look

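Of 18 sets of 6 values screened (9 genes in 2 genotypes), 2 held a sample whose gap to its nearest neighbour took more of the range than Dixon's 95% limit for 6 samples, and chance alone marks about 1 in 20 such sets. Camk2a in WT replicate 5 had 109.2 CPM, while the other WT samples had 47.9 to 70.1 CPM. Calm2 was at 896.5 CPM in Pon2-/- replicate 6 and at 1225 to 1341 CPM in its 5 companions. Without WT replicate 5 the log2 fold change of Camk2a was 0.44, and without Pon2-/- replicate 6 that of Calm2 was -0.13, neither of them called by edgeR.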

How the results depend on the processing

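The number of genes called over all tested genes was 24, 8 with no filter beyond 1 read, 304 with DESeq2 and 20 to 28 with each sample left out. It was 10 without both Pon2-/- replicates 5 and 6, a setting chosen after seeing the data. Members and pathway genes called stayed at 0 under each of these, and the members' adjusted p-values in these edgeR, DESeq2 and limma fits did not fall below 0.0820 (Camk2b with DESeq2). Replicate numbers gave no sign of paired samples. Same-numbered mice correlated at 0.000932 to 0.0430 in their deviations from the genotype means, and 1 of 6 WT samples correlated best with its own number. Correlations this small cannot exclude a pairing that is weak beside the spread of the libraries. With a replicate block 5 genes were called, none of them a member, and the log2 fold change of Camk2d was -0.0402.

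The direction of Camk2d depended on the fit: its log2 fold change was -0.44 with voom, -0.36 without both replicates, and -0.0852 to 0.39 with each sample left out, negative without WT replicate 5 or Pon2-/- replicates 5 or 6. Without both replicates Camkk2 was at 0.0452 and Ppp3ca at -0.0477. In mean log2 CPM, with each sample left out, Camk2d ranged from -0.92 to 0.52 (the latter without Pon2-/- replicate 1) and Camk1d from -1.98 to 0.0334 (the latter without Pon2-/- replicate 2), and Ppp3ca was at -0.0934 without both replicates. The cause was not tested. The share of Camk2d was 19.7% with the longest transcript in place of merged exons, which changes only the length used. Of the alternatives, 151 of the members' fold changes, 140 of the exact tests and 51 of the shares kept their direction and side of the threshold. Direction reversed for 8 fold changes and 3 exact tests, 1 exact test became stronger and 1 share moved. The biological coefficient of variation of 99.2% limits what these 12 samples can show for uneven genes such as Camk1d.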
